A study of Mus musculus with 4 samples.

Results

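The genes described here are 10 genes of bone matrix and osteoblast identity, Col1a1, Col1a2, Sp7, Dlx5, Dlx6, Bglap, Ibsp, Dmp1, Postn and Sost, out of 18220 protein-coding genes named in both gene annotations used. They are a list of names, and the rule that gathers their peaks uses position alone. Their open chromatin was read from ATAC-Seq, in which the transposase Tn5 inserts adapters where DNA is accessible, and peaks mark the places with many insertions. For each gene, peaks with a summit within 1 kb of the transcription start site (TSS) were read as promoter peaks. Peaks with a summit in the gene body or within 50 kb on either side were read as peaks of the locus. Because Dlx5 and Dlx6 are neighbours, as are Dmp1 and Ibsp, the 10 windows form 8 loci.

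The cells were primary chondrocytes, the cells of cartilage, from rib cartilage of newborn mice, used within 2 passages. Cho is the name of 2 replicate libraries, called Cho1 and Cho2 here, whose labels give no genotype. WT and E160(delta/delta);E308(delta/delta) had 1 library each, and the study describes these mice as littermates. The second genotype lacks both copies of E160 and of E308, elements upstream of Sox9, the gene of a transcription factor that cartilage needs. It is called the deletion library below, and its peaks the deletion list, and a comparison with WT compares 2 libraries and allows no test. Peaks overlapped E308 and E160 in WT with a fold enrichment of 15.4 and 13.4, and in the deletion library there was none at E160 and 1 of 4 fragments at E308. The lists held 76242 peaks in Cho1, 148330 in Cho2, 90971 in WT and 169591 in the deletion list. Cho2 was read with positions of GRCm38 (mm10) and the others with NCBIM37 (mm9).

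Type I collagen, a triple helix of Col1a1 and Col1a2 chains, is the main protein of bone and of fibrous tissue, whereas hyaline cartilage is built on type II collagen. Osteoblasts arise under the transcription factors Runx2 and Sp7, with Dlx5 and Dlx6 acting earlier in the skeleton, and then lay down a matrix that contains Bglap and Ibsp. Osteocytes, the osteoblasts that become buried in bone, make Dmp1 and Sost. Postn marks the fibrous layers around bone and cartilage.

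Fold enrichment is the number of fragments over a summit divided by the expected background, with 1 added to both. In Cho1 the background was 1 constant value for the whole genome, and in the other lists it was raised where the surroundings were rich in fragments. Fold enrichments of Cho1 are therefore on another footing than those of the other lists. Each Cho mean below joins values on these different footings, so its SD is not a measure of replicate spread alone. A bulk library cannot tell a site open in a few cells from a site weakly open in many.

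Of the 10 promoters, 6 had a peak in Cho1, where 58.5% of all promoters had one. The count was 8 in Cho2 against 64.9% of all promoters, 7 in WT against 62.0%, and 8 in the deletion library against 67.8%. The shares of the 10 genes were thus near those of all genes in every library. Col1a1, Col1a2, Dlx5, Dlx6 and Postn had a promoter peak in every library, and Sost had none in any. The starts of Dmp1 and Postn differ between the annotations of the 2 builds, and with starts matched between builds, a choice made after seeing the data, the count of Cho2 was 9 and the others were the same. Values below use matched starts.

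**Figure D1:**
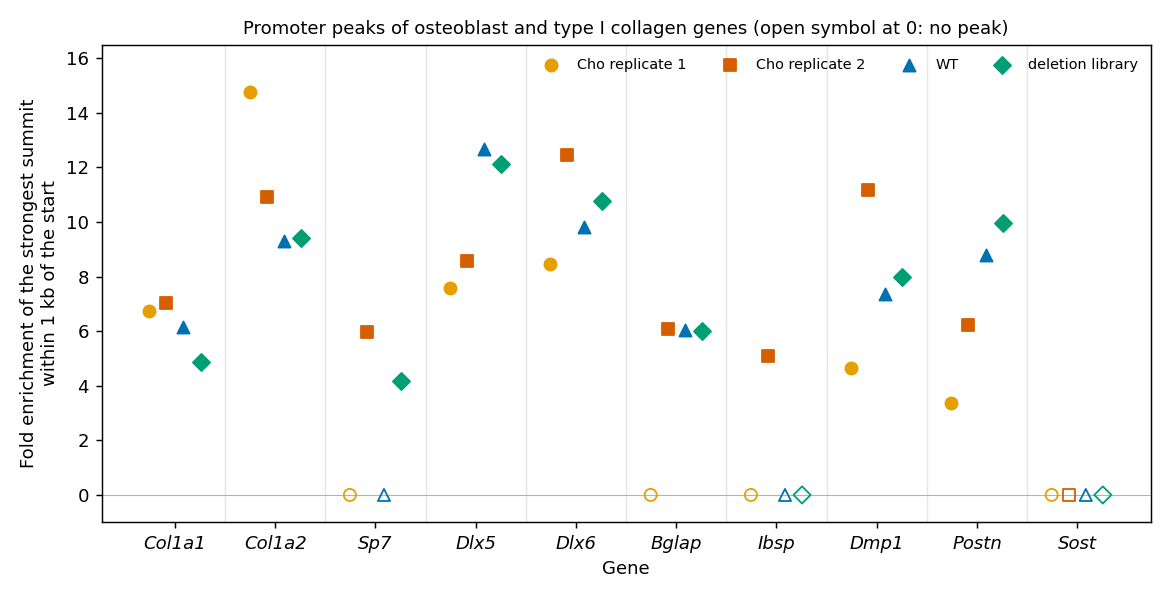
Fold enrichment (vertical axis, no unit) of the strongest summit within 1 kb of the start of each of the 10 genes (horizontal axis), 1 symbol per library; open symbols at 0 stand for no peak. Col1a1, Col1a2, Dlx5, Dlx6, Dmp1 and Postn have filled symbols for all 4 libraries, and Sost has none.

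The letters of 4 promoters are shown because they span the range from a peak in every library to a peak in 1 of 4. They are the 250 bases before the RefSeq start, 5′ to 3′ on the strand of the gene, in GRCm38.p6: Col1a2 at chr6:4505368-4505617 on the plus strand, Postn at chr3:54360857-54361106 on the plus strand, Bglap at chr3:88384467-88384716 on the minus strand and Ibsp at chr5:104299037-104299286 on the plus strand. Of the 10 genes, 6 had a RefSeq promoter sequence. Capitals mark matches, on either strand, to TATAAA (the TATA box), CCAAT (the CCAAT box), TGTGGT or TGCGGT (cores of Runx sites), AACAAT (a core of Sox sites), TAATTG or TAATTA (cores of homeodomain sites), TGANTCA (AP-1 sites) or CCGCCC (the GC box).
Col1a2: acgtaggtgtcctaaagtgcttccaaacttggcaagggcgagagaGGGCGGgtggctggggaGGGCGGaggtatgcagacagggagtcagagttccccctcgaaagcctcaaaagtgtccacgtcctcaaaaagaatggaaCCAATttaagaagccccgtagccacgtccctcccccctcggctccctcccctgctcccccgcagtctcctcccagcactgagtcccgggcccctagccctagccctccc
Postn: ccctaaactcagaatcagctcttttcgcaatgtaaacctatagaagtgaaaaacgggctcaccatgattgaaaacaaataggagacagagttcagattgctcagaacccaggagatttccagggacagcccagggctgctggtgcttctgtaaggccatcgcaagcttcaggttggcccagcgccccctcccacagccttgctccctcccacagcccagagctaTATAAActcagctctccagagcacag
Bglap: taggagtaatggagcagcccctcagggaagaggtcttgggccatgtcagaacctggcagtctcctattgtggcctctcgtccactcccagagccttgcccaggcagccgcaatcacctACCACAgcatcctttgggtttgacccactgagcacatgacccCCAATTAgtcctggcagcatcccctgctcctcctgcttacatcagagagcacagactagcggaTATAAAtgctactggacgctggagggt
Ibsp: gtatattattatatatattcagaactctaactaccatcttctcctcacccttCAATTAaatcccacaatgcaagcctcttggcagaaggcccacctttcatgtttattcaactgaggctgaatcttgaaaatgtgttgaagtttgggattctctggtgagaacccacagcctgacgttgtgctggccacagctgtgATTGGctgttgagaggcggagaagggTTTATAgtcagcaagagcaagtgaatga
Col1a2 had CCAAT from −109 to −105 and CCGCCC at 2 places, on the other strand, upstream of it, and no TATAAA. Postn had TATAAA alone, from −26 to −21. Bglap had TATAAA from −27 to −22, TGTGGT from −132 to −127 on the other strand, and a CCAAT that overlaps TAATTG on the other strand. Ibsp had both TATAAA, from −28 to −23, and CCAAT, from −54 to −50, on the other strand, with TAATTG on the other strand further upstream. Among 32851 RefSeq promoters of 300 bases, TATAAA stood in 13.6%, CCAAT in 37.4%, TGTGGT in 16.8%, TGCGGT in 6.45%, AACAAT in 10.7%, TAATTG in 8.0%, TAATTA in 5.29%, TGANTCA in 7.81% and CCGCCC in 35.7%. The 300 bases reach past the start, beyond the 250 printed, and over them Ibsp also had AACAAT. Positions count back from −1, the base before the start, and the matches describe the letters only.

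Col1a1, the gene of the alpha 1 chain of type I collagen, had peaks at its promoter in all libraries, but with low fold enrichment. Its strongest promoter summit had a fold enrichment of 6.76 in Cho1, 7.02 in Cho2, 6.15 in WT and 4.88 in the deletion list. The Cho mean was 6.89 ± 0.19 (SD, n = 2). By fragments over library background the Cho mean was 23.4 ± 17.5 (SD, n = 2), so the small SD of fold enrichment did not hold for fragments. In WT and the deletion library the strongest summit lay 24 bp after and 26 bp before the start. In the Cho replicates it lay inside the gene, 821 and 983 bp after the start, and the summit near the start had a fold enrichment of 5.49 and 4.86. Among promoters with a peak, Col1a1 stood at percentile 9.51 of fold enrichment in WT and 4.43 in the deletion list.

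The place of Col1a1 depended on the measure. The number of fragments at the summit was 34 in WT and 39 in the deletion list. By these fragments Col1a1 stood at percentile 61.5 in WT and 46.9 in the deletion list. The local background at Col1a1 was 13 times that of the library in WT and 11.5 times in the deletion library, where the median over all promoters with a peak was 3.38 and 3.31. In Cho2 the percentile was 11.2 by fold enrichment and 27.8 by fragments. Its local background there was 4.66 times that of the library, against a median of 3.20. In Cho1, with its constant background, the percentile was 23.1 by both measures. By fragments Col1a1 thus stood low in the Cho replicates and higher in WT and the deletion library. In WT and the deletion library it lay within a stretch that was itself rich in fragments.

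Col1a2, the gene of the alpha 2 chain, had a fold enrichment of 14.8 in Cho1, 10.9 in Cho2, 9.30 in WT and 9.42 in the deletion list. The Cho mean was 12.8 ± 2.7 (SD, n = 2), and all 4 summits lay in the 250 bases printed above, at −85, −12, −32 and −32. The values of WT and the deletion library were closer than those of the Cho replicates. The 2 Cho lists differ in how the background was set, so their gap is no yardstick for the other one. Ranked by fragments in place of fold enrichment, Col1a2 moved less than Col1a1, from percentile 26.3 to 54.9 in WT. Its local background was 6.77 times that of the WT library.

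**Figure D2:**
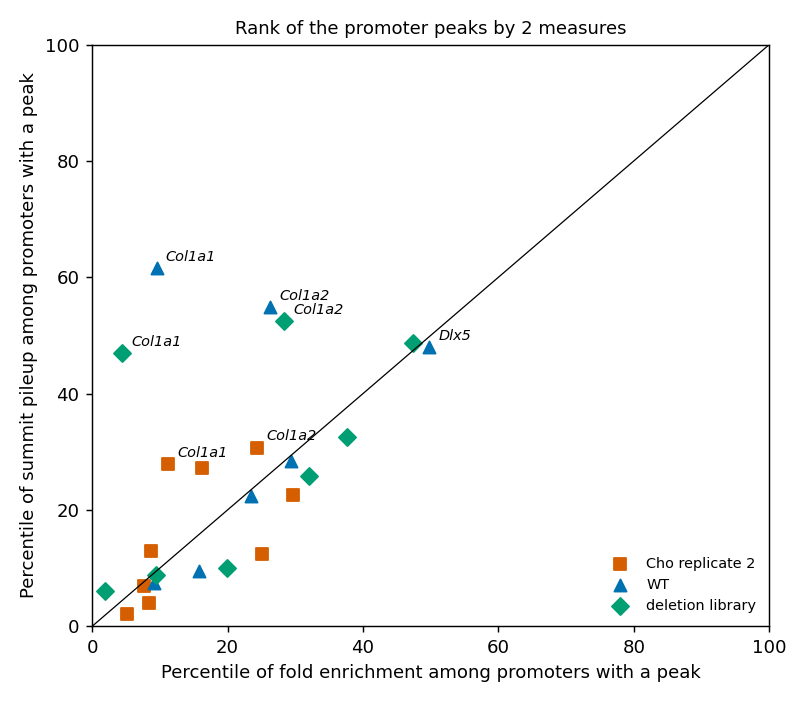
Percentile of fold enrichment (horizontal axis) and of summit fragments (vertical axis) of the members' promoter peaks among all promoters with a peak, in the 3 libraries with local backgrounds; 1 symbol per gene and library, and the line marks equal ranks. Col1a1 in WT lies farthest above the line, at 9.51 and 61.5, while Dlx5 in WT lies on it, at 49.8 and 48.0.

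Dlx5 and Dlx6, homeobox genes that lie tail to tail, had the highest promoter values of the 10 genes in WT and the deletion library. Dlx5 had a fold enrichment of 7.60 in Cho1, 8.57 in Cho2, 12.7 in WT and 12.1 in the deletion list. The Cho mean was 8.09 ± 0.69 (SD, n = 2), below both of the other libraries. Dlx6 had 8.45, 12.4, 9.82 and 10.8 in the same order, with a Cho mean of 10.4 ± 2.8 (SD, n = 2). Dlx6 had summits on both sides of its start in every library, the upstream one at −433 in WT and the downstream one at 294. The upstream summit was the stronger in Cho2, WT and the deletion library and the weaker in Cho1. The antisense gene Dlx6os1 overlaps Dlx6 here, and ATAC-Seq does not tell which strand a site serves.

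Sp7, the zinc finger factor (osterix) without which osteoblasts do not form, had a promoter peak in 2 of 4 libraries. The fold enrichment was 5.96 in Cho2 and 4.16, from 9 fragments, in the deletion library. These lie at percentile 7.66 and 1.94 of promoters with a peak. In Cho1 and WT the summit nearest the start lay at −3775 and −3873 bp. The Sp7 promoter was thus weakly open where it was called at all. The gene body held a further site 4104 bp after the start, with 5.38 in Cho2, 8.04 in WT and 9.37 in the deletion list.

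Bglap, the gene of osteocalcin, had a promoter peak with nearly the same value in 3 libraries, 6.09 in Cho2, 6.03 in WT and 6.0 in the deletion list. It had none in Cho1. The summits lay at −88, −115 and −97, within the printed bases, and rested on 17, 8 and 11 fragments. Bglap lies beside near-identical copies, of which Bglap2 had a peak of 10.4, 6.15 and 6.21 at its own promoter in the same 3 libraries, so that reads could be divided between them and the values of both are uncertain.

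Ibsp, which encodes bone sialoprotein, a matrix protein that binds mineral, had a promoter peak in Cho2 alone. It had a fold enrichment of 5.07 from 14 fragments at −59, and lay at percentile 5.19 of promoters with a peak. In the other libraries the nearest summit lay over 29 kb away, at 45407 bp after the start in Cho1, 34241 in WT and 29366 in the deletion list. Cho2 had the highest background of the 4 libraries, 1.96 fragments against 0.361 in WT.

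Dmp1, which encodes a phosphoprotein of osteocytes and dentine, had an upstream site in every library, at −872, −790, −825 and −840 bp from the matched start. Its fold enrichment was 4.64 in Cho1, 11.2 in Cho2, 7.35 in WT and 7.99 in the deletion list. The summit closest to the start in any library lay at −524, in the deletion library. With matched starts the Cho mean was 7.90 ± 4.61 (SD, n = 2). The Cho values were thus further apart than those of WT and the deletion library, on lists that also differ in how the background was set. In WT this site had the background of the whole library and 9 fragments.

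Sost, which encodes sclerostin, the osteocyte protein that blocks Wnt signalling, had no peak within 1 kb of its start. Its nearest summit lay upstream at −1996 in Cho2, −1945 in WT and −1965 in the deletion list. The fold enrichment there was 22.3, 12.3 and 13.9. These values exceeded every promoter value of the 10 genes in Cho2 and in the deletion library, and all but that of Dlx5 in WT. In Cho1 no summit lay closer than −17900 bp, and its locus held 1 peak, at the promoter of the neighbour Dusp3.

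Postn, which encodes periostin, a matrix protein of periosteum and perichondrium, had a start peak of 6.21 in Cho2, 8.78 in WT and 9.95 in the deletion list, at −47, −8 and −3. In Cho1 the only promoter summit lay at −450, with 3.38 from 7 fragments. A site further upstream, at −2478 in WT, had 8.87 in Cho1, 22.0 in Cho2, 7.35 in WT and 14.1 in the deletion list, more than the start peak in each library but WT. RefSeq has a second Postn start 1840 bp upstream of the printed one, and with that start Cho2 would have a promoter value of 22.0 and a Cho mean of 12.7 ± 13.2 (SD, n = 2), in place of 4.80 ± 2.01. Of the genes with a Cho mean under both starts, Postn was the one whose mean changed.

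Across the 7 promoters with a peak in both WT and the deletion library, the log2 ratio of fold enrichment ran from −0.33 at Col1a1 to 0.18 at Postn. The ratios of Col1a2 and Bglap were 0.02 and −0.01, and the median over all 11257 promoters with a peak in both was 0.01. By fragments over library background the ratio was 0.660 at Col1a1, with a 95% counting interval of 0.406 to 1.08, and 0.909 at Dlx6, with 0.495 to 1.71. All 7 ratios by fragments were below 1, and every counting interval held 1. Over all promoters with a peak, the median of this measure was 80.4 fragments over background for WT and 65.5 for the deletion list. These medians are over 11303 promoters in WT and 12349 in the deletion list, so they do not compare the same promoters. Over all shared peaks the median log2 ratio by this measure was −0.01. Whether the lower direction was particular to the 7 was not tested. At these 7 promoters no difference between the 2 libraries was larger than the counting error. Sp7, called in the deletion library alone, and Ibsp and Sost, called in neither, have no such ratio.

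Over all 18220 genes, the window of 1 gene held a median of 6 peaks in Cho1, 12 in Cho2, 8 in WT and 14 in the deletion list. The 8 loci, which cover 1.03 Mb in NCBIM37, held 70 peaks in Cho1, 134 in Cho2, 111 in WT and 166 in the deletion list. The median fold enrichment of these peaks was 5.91, 8.22, 6.92 and 6.54, where that of whole lists was 6.33, 7.93, 6.86 and 6.25. The peaks of the 3 NCBIM37 lists were merged into 168 sites, to which Cho2 peaks were joined by distance from the matched start, within 150 bp. This placed 112 of the 134 Cho2 peaks, and the others are not among the sites, so that a site called in Cho2 alone is not counted. Of the 168 sites, 49 were called in all 4 libraries, 39 in 3, 37 in 2 and 43 in 1. Sites were not formed over the genome, so these counts, here and by locus below, do not tell whether the loci are unusual. Outside protein-coding genes lay 102 sites, 32 of them called in all libraries. There were 36 promoter sites, 14 at the listed genes and 22 at neighbours, and 30 sites in introns or exons, of which 1 was called in all libraries. By count, most sites of these loci lay between genes and at starts. The windows take in long stretches on either side of each gene, so these counts depend on how the windows were drawn. Whether the sites favour such places was not tested.

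**Figure D3:**
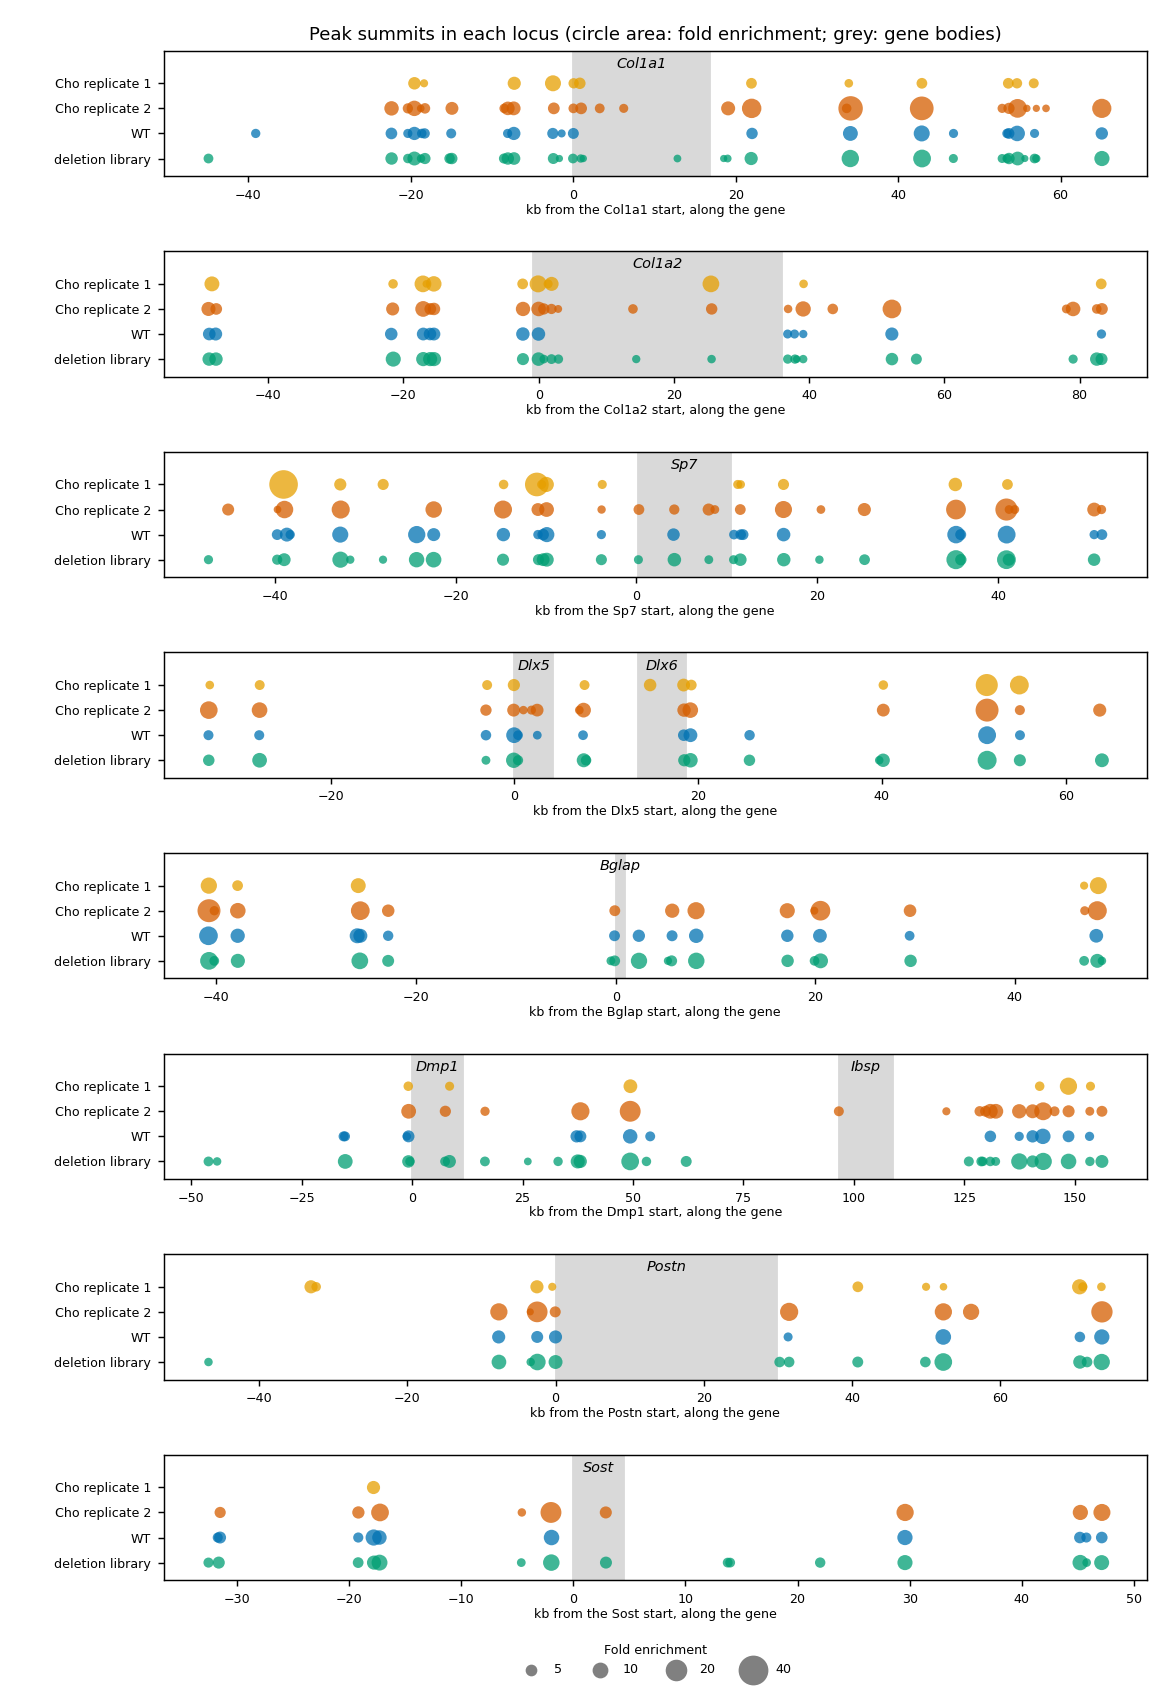
Summits in the 8 loci by distance in kb from the start of the first gene named (horizontal axis), 1 row per library; circle area stands for fold enrichment and grey for gene bodies in NCBIM37. The rows share columns of circles at Col1a1, Col1a2 and Dlx5 with Dlx6, whereas Sost has 1 circle in Cho1.

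Col1a1 had 30 sites, 10 of them in all libraries. Upstream of the gene these were at −2.51 kb, −7.30 kb, −18.28 kb and −19.55 kb, with a fold enrichment in WT of 6.34, 9.01, 5.53 and 9.05. The strongest WT peak of the locus lay 42.9 kb after the start, beyond the gene and outside other genes. It had 5.91 in Cho1, 28.8 in Cho2, 13.1 in WT and 16.2 in the deletion list. Few peaks were called in the gene body. Between the sites at 0.93 kb and the gene end, the 3 NCBIM37 lists had 1 site, of 3.11 from 15 fragments, in the deletion library. Cho2 had peaks of 4.94 at 3.27 kb and 4.24 at 6.22 kb. A deletion peak 1243 bp after the start, of 2.83 from 24 fragments, was merged into the site at 0.93 kb. Outside Cho1, local background was high at the Col1a1 promoter and lowers fold enrichment, so few called peaks need not mean few fragments.

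Col1a2 had 21 sites, 8 of them in all libraries, and its promoter was the strongest WT peak of its locus. A group of upstream sites at −15.50 kb, −17.07 kb and −21.81 kb was called in every library. The site at −17.07 kb had 14.4 in Cho1, 12.7 in Cho2, 8.42 in WT and 10.3 in the deletion list, close to the promoter values. Inside the gene, sites at 1.90 kb and 25.6 kb had 10.1 and 14.4 in Cho1, 5.41 and 6.69 in Cho2 and 4.94 and 3.71 in the deletion library. WT had no peak at either.

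Sp7 had 25 sites, 10 of them in all libraries, although its promoter was weak. The promoters of the neighbours Pfdn5, Myg1, Aaas and Sp1 made up 4 of the 10, and the one of Pfdn5 was the strongest WT peak of the locus, at 16.2. Between Sp7 and Sp1 the remaining shared sites included one at −9.90 kb, with 11.8, 11.1, 11.7 and 9.94 in the 2 Cho replicates, WT and the deletion library. The site at −10.88 kb had 28.7 in Cho1 and 8.50, 4.52 and 6.29 in the others. The largest value of any listed locus, 41.8, was that of the Sp1 promoter in Cho1.

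Dlx5 and Dlx6 had 15 sites, 9 of them in all libraries, the largest such share of any locus. The strongest lay at −32.72 kb from the Dlx6 start, at an exon of the antisense gene Dlx6os1. It had a fold enrichment of 24.9 in Cho1, 27.0 in Cho2, 16.3 in WT and 18.4 in the deletion list, above both promoters in every library. Between the 2 genes, a site 7.48 kb past the Dlx5 start had 5.07, 11.1, 4.88 and 10.1. It was one of the sites at 2-fold or more in the comparison of WT and the deletion library.

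In the Bglap locus 4 of 18 sites were called in all libraries, and all 4 lay at or in the neighbours Smg5, Pmf1 and Slc25a44. The Slc25a44 promoter was the strongest WT peak, at 17.9. Nearer to Bglap, a site 8.07 kb past its start and outside protein-coding genes had 15.0 in Cho2, 10.7 in WT and 13.8 in the deletion list, above the Bglap promoter in each. Cho1 had no peak within 25 kb of the Bglap start.

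The joined locus of Dmp1 and Ibsp, 2 genes of a cluster of mineral-binding matrix proteins, had 27 sites and 4 in all libraries. These were the Dmp1 upstream site and sites at −47.30 kb, 51.9 kb and 56.7 kb from Ibsp. The strongest WT peak, 12.2, lay 46.1 kb past the Ibsp start, with 16.3 in Cho2 and 15.2 in the deletion library. Between the deletion peaks at −34.62 kb and 29.37 kb from the Ibsp start, a stretch that holds the whole gene, WT and the deletion library had no peak. Postn had 18 sites with 3 in all libraries. The one 52.3 kb past its start, with 2.96, 15.2, 12.6 and 16, was the strongest of the 3 in WT and the deletion library and the weakest in both Cho replicates. Sost had 14 sites, of which only that at Dusp3 was in all libraries, with intergenic sites 29.6 kb, 45.2 kb and 47.1 kb past its start called in the other 3.

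The letters around 4 of these summits are shown because they are the sites described above that lie at some distance from the starts of Dmp1, Ibsp, Postn and Sost, that of Dmp1 still within the promoter window. Each has the WT summit with 100 bases on either side, 5′ to 3′ on the plus strand of NCBIM37, and none overlaps an annotated exon. The positions are chr5:104630711-104630911 for the Dmp1 upstream site, chr5:104774332-104774532 for the site past Ibsp, chr3:54217243-54217443 for the site past Postn and chr11:101830174-101830374 for the site upstream of Sost. Capitals mark the same motifs.
Dmp1 upstream: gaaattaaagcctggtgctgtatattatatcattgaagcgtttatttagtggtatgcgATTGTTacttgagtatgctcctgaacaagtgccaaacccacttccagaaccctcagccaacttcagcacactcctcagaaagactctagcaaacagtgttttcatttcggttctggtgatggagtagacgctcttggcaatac
Ibsp downstream: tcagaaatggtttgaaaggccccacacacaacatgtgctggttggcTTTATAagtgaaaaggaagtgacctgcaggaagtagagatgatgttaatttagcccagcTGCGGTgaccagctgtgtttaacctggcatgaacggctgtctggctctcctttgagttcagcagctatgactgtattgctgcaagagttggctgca
Postn downstream: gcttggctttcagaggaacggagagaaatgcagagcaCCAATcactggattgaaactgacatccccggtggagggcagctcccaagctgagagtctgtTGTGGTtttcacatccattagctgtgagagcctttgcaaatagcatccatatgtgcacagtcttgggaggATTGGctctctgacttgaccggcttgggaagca
Sost upstream: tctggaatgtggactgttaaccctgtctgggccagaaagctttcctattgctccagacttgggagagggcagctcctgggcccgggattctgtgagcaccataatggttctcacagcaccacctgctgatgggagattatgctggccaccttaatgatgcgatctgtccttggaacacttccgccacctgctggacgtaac
The Postn site had TGTGGT across its summit, from −2 to 3, and CCAAT on either side. The Ibsp site had TGCGGT from 5 to 10 after its summit. The Dmp1 site had AACAAT on the other strand from −42 to −37, and the Sost site had none of the motifs. Among windows of the same length at 90969 WT summits, TGTGGT stood in 19.9%, TGCGGT in 4.25%, AACAAT in 5.29%, CCAAT in 23.8% and TATAAA in 7.09%.

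Of the 111 WT peaks in the loci, 106 overlapped a deletion peak, 95.5% with a 95% exact binomial interval of 89.8% to 98.5%, against 95.9% of all WT peaks. Of the 166 deletion peaks, 102 overlapped a WT peak, 61.4% with an interval of 53.6% to 68.9%, against 49.4% of all deletion peaks. The intervals treat peaks as independent, although they lie in 8 loci of 1 library pair, and are no test against the genome. The deletion list held 1.5 times as many peaks as the WT list in these loci and 1.86 times over the genome.

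The 5 WT peaks with no deletion peak rested on 5 to 8 fragments, and the 3 strongest lay in an exon of Espl1 in the Sp7 locus (5.88), at −42.8 kb from Ibsp (5.05) and at −39.1 kb from Col1a1 (4.41). The strongest of the 64 deletion peaks with no WT peak lay at −45.2 kb from Dlx6 (9.84), 82.5 kb past the Col1a2 start (9.22) and at −21.4 kb from Dlx6 (9.22), on 15, 14 and 14 fragments. Of these 3, the site at −21.4 kb also had a peak in both Cho replicates, of 4.64 and 8.46, and that past Col1a2 had one of 4.73 in Cho2. Close to the site at −45.2 kb, Cho2 had a peak of 8.79, too far from it to be joined by the distance rule. Measured from the Dlx5 start, the summits lay at 63.7 kb in Cho2 and 63.9 kb in the deletion library. In Sost, the deletion library and Cho2 shared a peak of 7.39 and 7.47 in an exon of the gene, 2.91 kb past the start, where WT had none.

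Over the 106 shared peaks the median log2 ratio of fold enrichment, deletion over WT, was 0.18 (95% interval of the median 0.13 to 0.30). Over all 87274 shared peaks the median was 0.28. The interval treats peaks as independent, although some met the same deletion peak, and is no test against the genome. At 2-fold or more in the deletion library stood 6 of the 106 peaks, where 7.79% of all shared peaks did, and 0 were 2-fold or more lower, where 0.0710% of all did. Both counts were near the background of the genome. The 6 were 1 peak at 40.8 kb past Ibsp (log2 ratio 1.63), 2 near −15 kb from Dmp1 that met the same deletion peak (1.13 and 1.12), 1 at −1.18 kb from Dmp1 (1.12), and those at −27.8 kb and 7.48 kb from Dlx5 (1.11 and 1.04). The peak at −1.18 kb from Dmp1 met a wide deletion peak with its summit at −840 bp. Against the WT peak at −825 bp, the same deletion peak had a log2 ratio of 0.12. All 6 peaks at 2-fold or more had 4 to 7 fragments in WT. By fragments over library background only the site past Ibsp stayed at 2-fold or more, at 2.53 with a counting interval of 0.94 to 8.56, which holds 1.

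By locus the median log2 ratio ran from 0.09 at Col1a2 and 0.14 at Col1a1 through 0.17 at Dlx5 with Dlx6 and at Sost, 0.19 at Sp7, 0.22 at Bglap and 0.34 at Postn to 0.47 at Dmp1 with Ibsp. The measure decided the direction: by fragments over library background the median of the loci was −0.10 and that of all shared peaks −0.01.

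**Figure D4:**
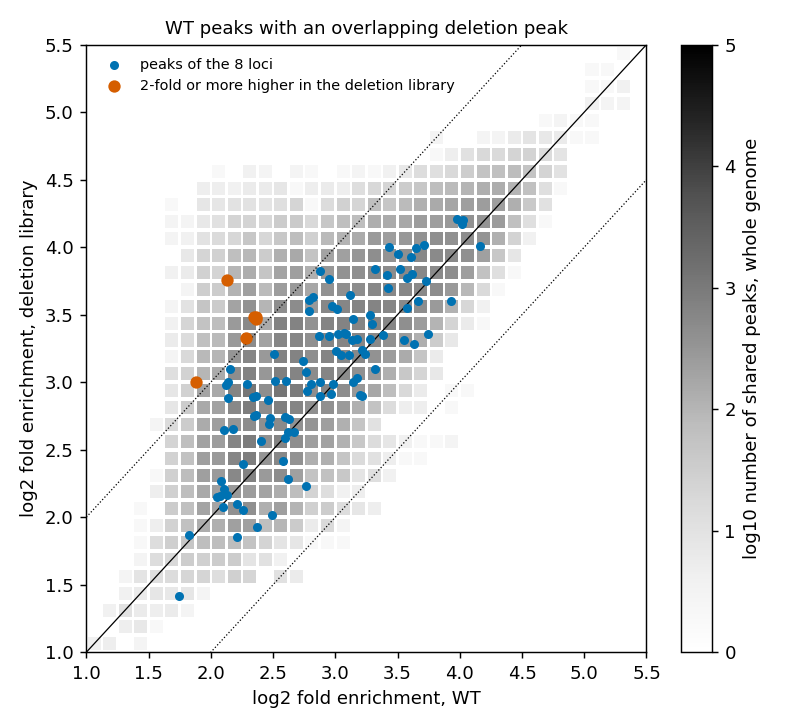
log2 fold enrichment in WT (horizontal axis) and in the deletion library (vertical axis) of WT peaks with an overlapping deletion peak; grey squares give the number of such peaks in the genome, blue points the 106 peaks of the 8 loci and orange points the 6 at 2-fold or more. The solid line marks equal values and the dotted lines a fold of 2; no point of the loci lies under the lower dotted line.

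Other genes of bone were read in the same way, from 33 genes listed by role. Of these, 27 had a promoter peak in Cho1 and 27 in Cho2, where 58.5% and 64.9% of all promoters had one, and 30 in WT and 30 in the deletion list, where 62.0% and 67.8% did. The same shares of all promoters stand behind the counts of each list that follows. All 13 genes listed for the making of type I collagen had one in 3 libraries and 12 in Cho2, where Plod2, a lysyl hydroxylase, had none. The collagen chaperone gene Serpinh1 had 16.9, 10.4, 8.70 and 7.72, and Ppib, a proline isomerase, had 19.0, 27.6, 19.5 and 17.8, in the order Cho1, Cho2, WT and deletion library. The median fold enrichment of the called genes of this list was 18.6 in Cho1, 16.7 in Cho2, 12.2 in WT and 10.5 in the deletion list. Over all promoters with a peak it was 12.2, 17.6, 12.7 and 12.4 in the same order, so that the list lay above all promoters in Cho1 and below them in the others. Runx2, the factor that starts the osteoblast lineage, had 6.76, 11.2, 9.51 and 12.1.

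Of 8 genes of bone matrix and mineral, 5 had a promoter peak in Cho2, WT and the deletion library and 4 in Cho1. Phospho1, a phosphatase of mineralizing vesicles, had 11.8, 17.6, 17.7 and 17.1, and Alpl, the tissue-nonspecific alkaline phosphatase, had none, 11.4, 8.05 and 9.83. Mepe, Phex and Dspp had no promoter peak in any library. Tnfrsf11b, the gene of osteoprotegerin, had 10.6, 15.1, 13.3 and 13.2, the highest WT value of the 7 osteocyte and coupling genes, all of which had a promoter peak in WT.

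Markers of cell types stand beside these results. Of 9 chondrocyte genes, 4 had a promoter peak in Cho1 and 8 in each other library, Comp having none in any, with values in WT from 4.15 at Matn1 to 20.6 at Matn3. Of 6 fibroblast and perichondrium genes, 4 had a promoter peak in Cho1 and 6 in each other library, from 4.82 to 7.85 in WT. Of 4 endothelial genes 3 had one in every library but Cho2, where 2 had one. Of 4 muscle genes 0 had one in Cho1, 1 in WT and 2 in each other library, and of 3 blood genes none did. Of the 2 osteoclast genes Ctsk had a peak in every library and Acp5 in none. The part that such cells have in the peaks of the 10 genes was not tested.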

How the data were processed

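ATAC-Seq was analysed in 4 libraries of mouse rib chondrocytes, grouped by their labels. Per the study's methods and the submitters' processing notes, the authors preprocessed reads with fastp, aligned them to mm9 with Bowtie2 2.4.4, removed duplicates with Picard (2.20.7 in the notes, while the methods name another version), used SAMtools 1.9 and called peaks with MACS2 2.2.4 at a q-value of 0.05, 1 list per library. The deposited lists give a fold enrichment (the ratio that MACS2 forms from summit pileup and background after adding 1 to each), the −log10 of the p-value and q-value, a score of 10 times the −log10 q-value, and a summit offset. Library read totals were not used here, and depth was read from the background: 1.37 fragments in Cho1, 1.96 in Cho2, 0.361 in WT and 0.626 in the deletion library. Intervals of fragment ratios cover counting error only, and those of shares and of the median treat peaks as independent. Fold enrichment moves with depth and local background, so values of different lists are not on 1 scale.

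From each interval the summit of highest fold enrichment was kept. Whole summit fragments were solved from fold enrichment and p-value (tolerance 0.002 on −log10 p) and were found for 100% of peaks in all lists, with more than 1 solution for 19 to 1772 peaks a list. The solution was tested on simulated data. Genes came from GENCODE M1 for NCBIM37 and from RefSeq for GRCm38.p6. Cho2 was read as GRCm38, since it lists positions and sequences that NCBIM37 does not have, although mm9 is named. No coordinates were converted. RefSeq promoters were found in NCBIM37 by sequence, and the starts of Col1a1, Sp7, Dlx5 and Dlx6 by distance from neighbouring promoters. Overlaps needed 1 bp. Shares have Clopper-Pearson intervals. With 1 library per genotype no test across peaks was made.

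The 10 genes and all lists were chosen with earlier results of these data known. Named peaks were the strongest WT peak of each locus, shared peaks at 2-fold or more, the 3 strongest peaks of WT and of the deletion library without a partner, and peaks in all 4 libraries, from which examples are given. Others were named after their values were seen, such as the sites within genes. Of the marker genes, Spi1 and Ocstamp were not analysed here. Alternatives covered promoter windows, starts, q-values, list sizes, flanks, overlap and the measure. Python 3.11.15, numpy 2.4.6, pandas 2.3.3, scipy 1.17.1, matplotlib 3.10.9 and samtools 1.23.1 were used.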

Additional observations from a re-analysis of the deposited data

How the results depend on the processing

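No paired analysis was possible because each genotype compared had a single library. The promoter counts of the 10 genes stayed within 1.5 times the value given under other windows, starts and q-values, but with each list reduced to the size of the smallest, Cho2 had 5. Locus peak numbers moved with q below 1e-05 in Cho1, to 46, and with equal list sizes in Cho2, to 78, and in the deletion library, to 87. With flanks of 20 kb there were 37, 73, 56 and 89 peaks in Cho1, Cho2, WT and the deletion library, and with flanks of 100 kb 119, 235, 182 and 280, as the window itself changed. With equal numbers of strongest peaks, 82.9% of WT locus peaks and 87.9% of deletion locus peaks had a partner, so the excess of unmatched deletion peaks depended on list size. An overlap of 50% lowered the share of deletion peaks to 51.8%. Shares over the genome were not computed under these alternatives. By summit fragments over library background the median log2 ratio reversed, to −0.096, and 1 peak stood at 2-fold or more higher. Leaving out a Cho replicate gave 6.76 to 7.02 at Col1a1, 10.9 to 14.8 at Col1a2, 7.60 to 8.57 at Dlx5, 8.45 to 12.4 at Dlx6 and 3.38 to 22.0 at Postn. These ranges used the starts of the gene records, and with matched starts that of Postn was 3.38 to 6.21. The summit nearest the start gave 5.17 for Cho at Col1a1 and 4.3 for the deletion library at Dmp1. The lowest summit listed had 6 fragments in Cho1, 8 in Cho2, 4 in WT and 4 in the deletion library, and whether a site missing from a list was closed or too shallow to call was not tested.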
